A study of Mus musculus with 9 samples.

Results

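Polycomb repressive complex 2 (PRC2) and the enzymes that remove its histone mark were followed across 9 RNA sequencing libraries of mouse CD4+ T cells. The 10 genes were taken by name: the catalytic subunits Ezh2 and Ezh1, the core subunits Eed, Suz12, Rbbp4 and Rbbp7, the accessory subunits Phf19 and Jarid2, and the H3K27 demethylases Kdm6a and Kdm6b. All 10 were found among the 25759 gene rows of the table, and all 10 were among the 15126 genes that reached a mean of 0.5 FPKM over the libraries and were tested. FPKM counts sequenced fragments for each kilobase of a transcript and each 1e6 fragments mapped, so levels of different genes are scaled for length.

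The 3 groups hold 3 libraries each, from C57BL/6 mice aged 8 to 12 weeks, and mice of every group carried a Foxp3GFP reporter transgene, by which cells with the regulatory T cell factor Foxp3 glow green. Naive wild-type (WT) cells received no treatment and were sorted from lymph node and spleen as CD4+, CD44-, CD62+ and reporter-negative. Activated WT cells came from whole lymph node and spleen suspensions kept for 3 days with 2 ug/ml ConA, a lectin that stimulates T cells, and 10 ng/ml LPS, a bacterial cell wall component, and were then sorted as CD4+, CD44+, CD62- and reporter-negative. The activated knockout group was treated and sorted in the same way but came from BMPR1a/CD4cre conditional knockout mice, in which Cre made under the Cd4 promoter acts in T cells from their development in the thymus and the target is Bmpr1a, which encodes a receptor of the bone morphogenetic protein (BMP) family of signals. There was no naive knockout group. Activation, culture and the CD44 gate differ together between naive and activated groups and cannot be told apart, and "activation" below stands for all of them. The labels do not say whether replicates are different animals, and p-values then measure only the spread between these libraries, which may be technical.

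PRC2 adds methyl groups to lysine 27 of histone H3, and the trimethylated form, H3K27me3, marks genes that are kept silent. EZH1 and EZH2 are alternative catalytic subunits, EED binds the finished mark and stimulates the enzyme, SUZ12 holds the core together, and RBBP4 and RBBP7 are closely related histone-binding proteins. PHF19 and JARID2 belong to different versions of the complex and help it find chromatin. KDM6A (also called UTX) and KDM6B (JMJD3) remove the mark. In T cells, this system is known for keeping the genes of other helper lineages silent, and EZH2 is generally abundant in dividing cells while EZH1 is also kept in resting ones.

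For 9 of the 10 genes RefSeq gives a start-site window of 300 bases, 250 before the start and 50 after it (GRCm38.p6), and for Kdm6b none was at hand. The windows were searched on both strands for 8 short motifs. The E2F motif, spelled here TTTGGCGC, TTTCGCGC, TTTCCCGC or TTTGCCGC, was in 744 of 32851 windows of all genes (2.26%) and in those of 3 of the 9 genes, Ezh2, Phf19 and Suz12. Stretches of 30 bases around these matches are shown for this motif only. The reason is that the same 3 genes were among the 4 that rose on activation below. That choice was made with the result known, so it is no test of a link, and a role of E2F was not tested. Each stretch is on the strand of its gene, with the match in capitals.
Ezh2: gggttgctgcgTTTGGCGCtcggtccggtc
Phf19: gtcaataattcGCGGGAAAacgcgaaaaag
Suz12: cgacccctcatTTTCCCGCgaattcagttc

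The Ezh2 stretch is at chr6:47595009-47595038 on the minus strand, and its match begins at base 4 after the RefSeq start. The Phf19 stretch is at chr2:34914166-34914195 on the minus strand, with the match read on the opposite strand (TTTCCCGC) 208 bases before the start (position -208). The Suz12 stretch is at chr11:79992876-79992905 on the plus strand, with its match 219 bases before the start (position -219). The CCAAT box (CCAAT) was in the windows of 6 genes, Ezh2, Eed, Suz12, Rbbp4, Rbbp7 and Jarid2, against 37.4% of all windows, and the GC box (GGGCGG) in those of 6, Phf19, Suz12, Rbbp4, Rbbp7, Jarid2 and Kdm6a, against 35.7%. The NRF1 motif was in the windows of both catalytic genes, Ezh2 and Ezh1, against 2.27% of all, and the CHR motif (TTTGAA) in those of Eed and Suz12, against 17.9%. The ETS (CCGGAAG, 8.86% of all windows), YY1 (GCCGCCAT, 2.24%) and NF-kappaB (0.35%) motifs were in no window of the 9 genes. None of the 3 E2F matches overlapped a match of another motif. These matches describe letters, not binding.

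Genes at or above 1 FPKM numbered 12922 to 13395 per library, and read depth is unknown. Summed FPKM over all rows ran from 3446190 to 13114288 and was higher in each activated library than in any naive one. Over protein-coding genes the sum ran from 533142 to 595891. The T cell genes Cd4 and Cd3e were at 280 to 353 and 209 to 246 FPKM over the 9 libraries. All 8 granulocyte markers were above 0 in the 3 naive libraries, where they summed to 56.0, 681 and 110 FPKM, so that naive library 2 stood apart, and they summed to at most 2.20 FPKM in the activated libraries, where up to 6 of the 8 were listed at 0. The 8 macrophage and monocyte markers summed to 25.8 to 208 FPKM in naive and 14.4 to 21.6 in activated libraries of both genotypes, and the 6 erythroid markers to 63.6 to 84.2 in naive and at most 1.72 in activated ones. The 2 CD8 T cell markers summed to 9.48 to 41.4 FPKM in naive, 147 to 230 in activated WT and 220 to 279 in knockout libraries, although the gate was CD4+, and the 8 B cell markers to 3.49 to 192, 145 to 184 and 136 to 206. The part of such cells in the results below was not tested. The targeted gene Bmpr1a was read at 0.460, 0.311 and 0.336 FPKM in naive WT, 2.163, 2.923 and 1.404 in activated WT and 0.9571, 1.927 and 1.199 in knockout libraries. It was not called between the activated groups (log2 fold change -0.41, SE 0.208, limma adjusted p = 0.261). A gene-level value also counts exons outside a deleted part, so it does not settle the genotype label.

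On activation the PRC2 genes did not move as 1 block. Ezh2 and Phf19 rose several-fold, Suz12 and Rbbp7 rose slightly, the demethylase genes Kdm6b and Kdm6a fell, and Ezh1, Eed, Rbbp4 and Jarid2 did not pass the test. That is 6 of 10 genes called at an adjusted p under 0.05, 4 higher and 2 lower. Over all tested genes 52% were called, 26.2% higher and 25.8% lower, so the number of called genes is close to the background. The median log2 fold change of the 10 genes was 0.03, beside -0.01 over all tested genes. Fold changes here are limma estimates on log2(FPKM + 1), which understates changes at low levels.

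**Figure D1:**
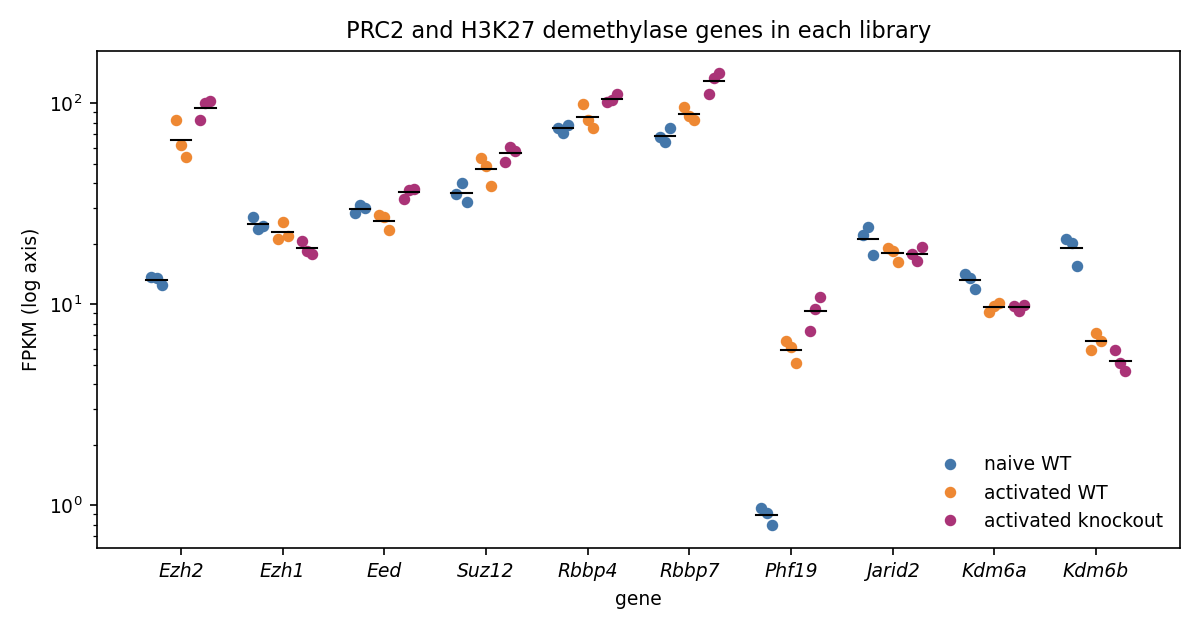
FPKM (log axis) of the 10 genes in each library, with naive WT, activated WT and activated knockout libraries as coloured points and short lines at the group means. Ezh2 and Phf19 are far lower in the 3 naive libraries than in the 6 others, Kdm6b is higher there, and the Ezh1 and Jarid2 points lie close together across groups.

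The plot of levels by library shows the genes in the order in which they are described here. Ezh2, on the minus strand of chr6:47530139-47595341, had 13.7, 13.5 and 12.5 FPKM in naive WT, 82.2, 61.9 and 53.8 FPKM in activated WT, and 82.9, 99.8 and 102 FPKM in knockout libraries. Every activated library lay above every naive one. The activated WT mean of 66.0 ± 14.6 FPKM (SD, n = 3) was 4.98 times the naive mean of 13.2 ± 0.630. The log2 fold change was 2.21 (SE 0.152, limma adjusted p = 2.60e-05), and the gene stayed called under all 18 alternative settings and left-out libraries.

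Ezh1, the other catalytic subunit gene (minus strand, chr11:101191115-101226463), was at 27.2, 23.6 and 24.5 FPKM in naive WT, 21.2, 25.8 and 21.9 in activated WT and 20.7, 18.5 and 17.7 in knockout libraries. Naive and activated WT libraries overlapped, and the log2 fold change of -0.12 (95% interval -0.35 to 0.10) was not called (limma adjusted p = 0.312). The order of the catalytic genes differed between naive and activated cells. The ratio of Ezh2 to Ezh1 FPKM was 0.503, 0.575 and 0.510 in the naive libraries, so Ezh1 was the higher of them in each. It was 3.87, 2.40 and 2.46 in activated WT and 4, 5.41 and 5.77 in knockout libraries. The sum of both genes was 38.3 ± 2.19 FPKM in naive WT, 89.0 ± 13.9 in activated WT and 114 ± 9.05 in knockout cells (SD, n = 3 each).

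The core subunit genes changed less. Suz12 (plus strand, chr11:79993106-80034123) was at 35.3, 40.1 and 32.1 FPKM in naive, 53.5, 48.6 and 38.6 in activated WT and 50.7, 60.3 and 58.2 in knockout libraries. The lowest activated WT library lay below the highest naive one, and the log2 fold change of 0.37 (SE 0.135) was called by a narrow margin (limma adjusted p = 0.0488). It was called in 6 of the 18 alternatives (adjusted p from 0.00285 to 0.152), and lost without naive library 1 or 3, activated WT library 1 or 2, or any 1 knockout library.

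Rbbp7 (plus strand, chrX:162760402-162779092) was at 67.6, 64.3 and 75.0 FPKM in naive, 95.3, 86.4 and 82.1 in activated WT and 111, 134 and 141 in knockout libraries. These 3 groups did not overlap and stood in that order. Its log2 fold change on activation was 0.35 (SE 0.107, limma adjusted p = 0.0267), called in 12 of 18 alternatives and lost without naive library 1 or 2 or activated WT library 1 or 2 (adjusted p from 0.00392 to 0.0893). Its relative Rbbp4 (minus strand, chr4:129307100-129335370) was at 75.6, 71.2 and 78.0 FPKM in naive, 98.9, 82.2 and 75.1 in activated WT and 102, 103 and 111 in knockout libraries. Naive and activated WT libraries of Rbbp4 overlapped (log2 fold change 0.18, 95% interval -0.05 to 0.41, limma adjusted p = 0.172).

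Eed, the subunit gene for binding the mark (minus strand, chr7:89954654-89980983), was lowest in activated WT cells. It was at 28.5, 31.2 and 30.1 FPKM in naive, 27.6, 27.03 and 23.4 in activated WT and 33.5, 37.2 and 37.6 in knockout libraries. The naive and activated WT libraries did not overlap, but the difference of -0.20 (SE 0.081) was not called (limma adjusted p = 0.0750), other than with quantile normalization (-0.23, adjusted p = 0.0479). The ratio of Ezh2 to Eed FPKM went from 0.443 ± 0.0329 in naive to 2.52 ± 0.391 in activated WT cells, and that of Ezh2 to Suz12 from 0.372 ± 0.0295 to 1.402 ± 0.132 (SD, n = 3 each).

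Among the accessory subunits, Phf19, which reads a methyl mark of active genes (minus strand, chr2:34893757-34914026), was at 0.964, 0.909 and 0.794 FPKM in naive, 6.56, 6.16 and 5.07 in activated WT and 7.35, 9.48 and 10.9 in knockout libraries. Its activated WT mean was 6.67 times the naive mean, a larger ratio of FPKM than that of Ezh2. Its log2 fold change was 1.87 (SE 0.143, limma adjusted p = 4.09e-05), called under all 18 alternatives. Jarid2 (plus strand, chr13:44729474-44921643) was at 22.0, 24.2 and 17.6 FPKM in naive, 18.9, 18.5 and 16.3 in activated WT and 17.8, 16.4 and 19.3 in knockout libraries. Its groups overlapped (log2 fold change -0.23, 95% interval -0.51 to 0.06, limma adjusted p = 0.159). It was called lower in 2 of 18 alternatives, with array quality weights and without naive library 3 (limma adjusted p from 0.0234 to 0.408).

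Both demethylase genes fell. Kdm6b (minus strand, chr11:69398508-69413675) was at 21.2, 20.2 and 15.5 FPKM in naive, 5.88, 7.22 and 6.59 in activated WT and 5.93, 5.09 and 4.64 in knockout libraries. The log2 fold change was -1.39 (SE 0.134, limma adjusted p = 0.000118), and the activated WT mean was 0.346 of the naive mean. Kdm6a (plus strand, chrX:18162575-18279936) was at 14.1, 13.5 and 11.9 FPKM in naive, 9.12, 9.84 and 10.2 in activated WT and 9.85, 9.28 and 9.89 in knockout libraries (log2 fold change -0.40, SE 0.078, limma adjusted p = 0.00339). Neither gene's naive libraries overlapped its activated ones, and both were called under all 18 alternatives.

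Kdm6b was the higher of the demethylase genes in each naive library and Kdm6a in each activated one. The ratio of Kdm6a to Kdm6b FPKM was 0.665, 0.671 and 0.767 in naive, 1.55, 1.36 and 1.55 in activated WT and 1.66, 1.82 and 2.13 in knockout libraries. The ratio of Ezh2 to Kdm6b FPKM was 0.645, 0.672 and 0.806 in naive and 13.97, 8.58 and 8.18 in activated WT libraries. In knockout libraries it was 13.97, 19.6 and 22.1. Library 1 of both activated groups thus had the same ratio, and neither gene was called between genotypes. This ratio of RNA levels pairs the catalytic gene that rose with the demethylase gene that fell more. It leaves out Ezh1 and Kdm6a, which changed less. Uty, the Y-linked relative of Kdm6a and chosen here after its values were seen, was at 7.24 to 9.92 FPKM in naive and 8.66 to 9.92 in activated WT libraries, and was not called.

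Libraries of naive and activated WT cells did not overlap for 6 of the 10 genes, Ezh2, Phf19, Rbbp7, Eed, Kdm6a and Kdm6b, against 59.4% of all tested genes. For these 6 the two-sided exact permutation p was 0.1, the smallest that 3 against 3 libraries allow. Without naive library 2, which had the highest granulocyte marker sum, 5 of the 10 genes were called on activation, Rbbp7 being lost. Of the 15126 tested genes 7309 were called in that fit. In bulk RNA, fewer cells of a type and less RNA per cell cannot be told apart.

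The order of levels within a group changed accordingly. In naive cells it ran from Rbbp4 (75.0 FPKM) and Rbbp7 (69.0), whose libraries overlapped, through Suz12 (35.8) and Eed (29.9), to Ezh1 (25.1), Jarid2 (21.2) and Kdm6b (19.0), each overlapping the next. Below these were Ezh2 (13.2) and Kdm6a (13.2), which overlapped, and Phf19 (0.889). In activated WT cells Ezh2 overlapped Rbbp4 near the top, Suz12 followed, then Eed and Ezh1, which overlapped, Jarid2, Kdm6a, and last Kdm6b and Phf19, which overlapped. In knockout cells Rbbp7 (128) stood above Rbbp4 (105) and Ezh2 (95.01), which overlapped, and Kdm6b (5.22) was lowest, below Phf19 (9.25).

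Setting activated knockout against activated WT cells asks what differs with the Bmpr1a genotype after the same stimulation. Eed and Rbbp7 were higher in the knockout, and the other 8 genes were not called. Over all tested genes 4.14% were called, 3.3% higher and 0.84% lower. Eed was higher by 0.46 (log2, 95% interval 0.27 to 0.65, limma adjusted p = 0.0324), a ratio of mean FPKM of 1.39. Rbbp7 was higher by 0.54 (0.29 to 0.78, limma adjusted p = 0.0411), a ratio of 1.46.

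These calls depend on scaling and on single libraries. The tests used the values as deposited, while median-of-ratios size factors were 0.971 to 0.982 in activated WT and 1.02 to 1.03 in knockout libraries. With such scaling Eed was higher by 0.38 (limma adjusted p = 0.0716) and Rbbp7 by 0.46 (limma adjusted p = 0.0686), so that 0 of the 10 genes were called, and of all calls 54.2% were higher in the knockout in place of 79.7%. Eed was called in 9 of 18 alternatives (limma adjusted p from 0.00600 to 0.128) and lost without naive library 1, activated WT library 2 or 3, or knockout library 2 or 3. Rbbp7 was called in 5 (limma adjusted p from 0.00600 to 0.1502) and lost without naive library 1 or 2, any 1 activated WT library, or knockout library 2 or 3. Without naive library 2 alone, which enters this comparison only through the shared spread, 1 of the 10 genes was called, and 407 of the 15126 tested genes.

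Markers of other cells also differed between the activated groups, and their part in these results was not tested. Of 5 regulatory T cell markers 2 were called higher in the knockout, and the 5 summed to 318 to 377 FPKM in activated WT and 331 to 491 in knockout libraries, mostly Ctla4 and Il2ra, which activated T cells also make. The defining gene Foxp3 was at 1.02, 0.989 and 0.867 FPKM in activated WT and 5.89, 2.21 and 4.31 in knockout libraries (log2 fold change 1.32, limma adjusted p = 0.0351, called in 9 of 18 alternatives), although both groups were sorted as reporter-negative. In naive WT libraries it was at 2.43 to 2.79. Ikzf2 had means of 3.68 ± 0.158 FPKM (activated WT) and 6.78 ± 1.86 FPKM (knockout) (limma adjusted p = 0.0478, called in 3 of 18 alternatives).

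The 6 NK cell markers, of which 3 were tested, summed to 10.7 to 48.6 FPKM in naive, 25.6 to 36.9 in activated WT and 52.3 to 55.6 in knockout libraries. The sums did not overlap between genotypes, as was so for the values of 31.2% of all tested genes. Klrk1, which activated T cells can also express, made up most of the activated sums, with means of 29.4 ± 4.403 FPKM (activated WT) and 51.4 ± 1.24 FPKM (knockout) (limma adjusted p = 0.0232, called in 13 of 18 alternatives). The NK cell gene Ncr1 was at most 0.0584 FPKM in any activated library. Klra8 and Klre1, low and not tested, went the other way without overlap. Their means were 0.129 and 0.325 FPKM in activated WT and 0.0430 and 0.228 in knockout cells. None of the 2 CD8 T cell, 8 B cell or 8 T cell markers was called between genotypes. Foxp3, Ikzf2, Ctla4, Il2ra, Klrk1, Ncr1, Klra8 and Klre1 are named after their values were seen.

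**Figure D2:**
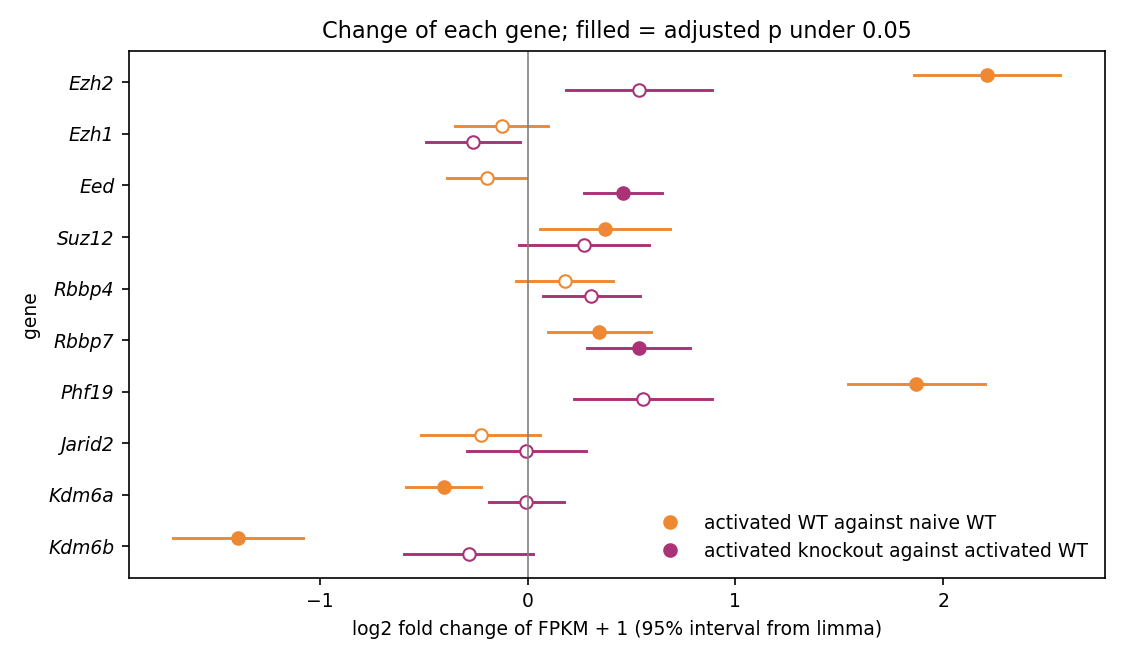
Log2 fold change of FPKM + 1 for each gene with its 95% interval from limma, for activated WT against naive WT (orange) and activated knockout against activated WT (purple), filled where the adjusted p was under 0.05. On activation Ezh2 and Phf19 stand far right and Kdm6b far left, and between genotypes only Eed and Rbbp7 are filled, with all values between -0.28 and 0.56.

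As the plot of fold changes shows, Ezh2 and Phf19 leaned the same way as Eed and Rbbp7 without being called. For Ezh2 the difference was 0.54 (95% interval 0.18 to 0.89, limma adjusted p = 0.0851), and knockout library 1 (82.9 FPKM) lay just above activated WT library 1 (82.2). For Phf19 it was 0.56 (0.23 to 0.89, limma adjusted p = 0.0693). The differences of Rbbp4 (0.31, adjusted p = 0.115) and Suz12 (0.27, adjusted p = 0.260) were smaller, and only the Suz12 libraries overlapped. Ezh1 was at lower values in each knockout library than in any activated WT library (-0.26, 95% interval -0.49 to -0.04, limma adjusted p = 0.146).

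For Jarid2 and Kdm6a the estimates were near 0, with 95% intervals of -0.29 to 0.28 and -0.18 to 0.17 (limma adjusted p = 0.996 and 0.989). Kdm6b had a difference of -0.28 (-0.59 to 0.03, limma adjusted p = 0.237), with knockout library 1 (5.93 FPKM) above activated WT library 1 (5.88). The groups did not overlap for 6 of the 10 genes, Ezh1, Ezh2, Eed, Rbbp4, Rbbp7 and Phf19, against 31.2% of all tested genes, and 6 had an unadjusted limma p under 0.05, as had 25% of all tested genes. The median difference of the 10 genes was 0.29, beside 0.06 over all tested genes.

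**Figure D3:**
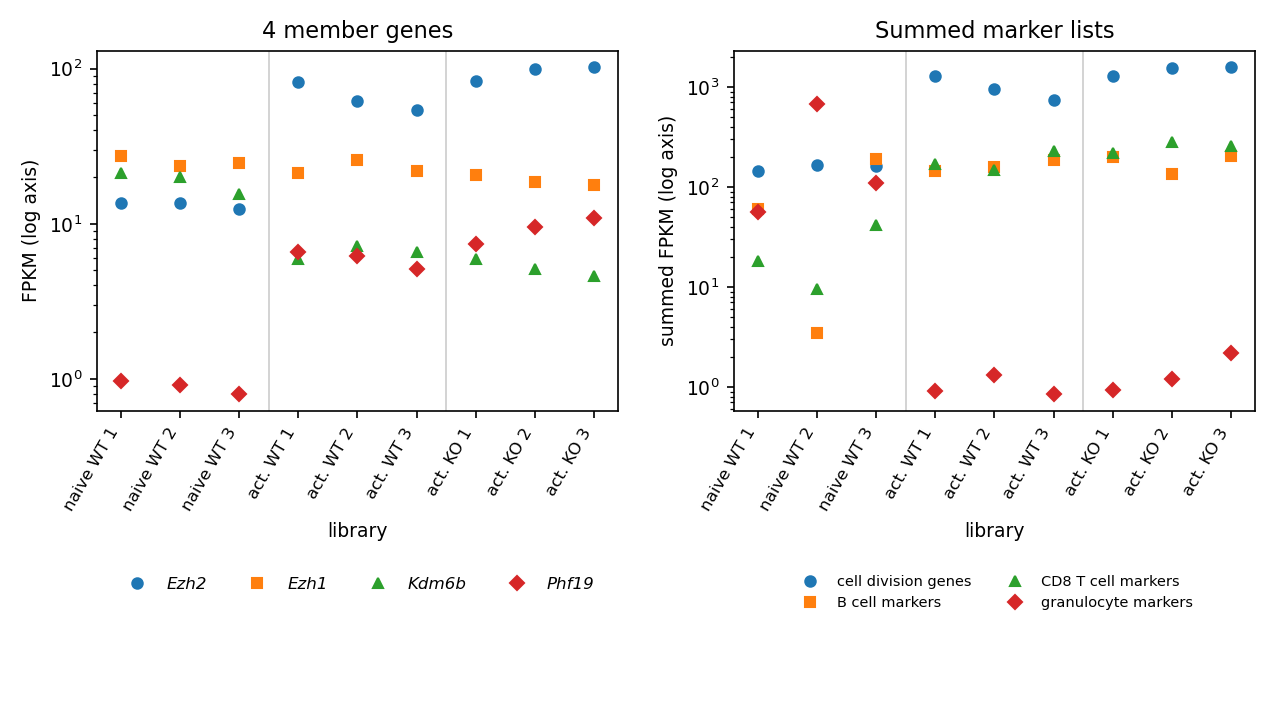
Left, FPKM (log axis) of Ezh2, Ezh1, Kdm6b and Phf19 in each of the 9 libraries. Right, summed FPKM (log axis) of 14 cell division genes and of B cell, CD8 T cell and granulocyte markers in the same libraries. Among activated libraries the cell division sum keeps the Ezh2 order, except that activated WT library 1 and knockout library 1 swap places. Naive library 2 has the highest granulocyte sum.

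Levels of cell division genes moved with Ezh2, as the plot of libraries side by side shows. The 14 genes of that list summed to 145, 164 and 160 FPKM in naive, 1294, 961 and 745 in activated WT and 1274, 1542 and 1578 in knockout libraries, and their part in the differences above was not tested. Knockout library 1 lay below activated WT library 1 in this sum, so the groups overlapped. Per 100 FPKM of the sum, Ezh2 was at 6.35, 6.44 and 7.23 FPKM in activated WT and at 6.51, 6.47 and 6.49 in knockout libraries, values that overlap. In naive libraries it was at 9.40, 8.25 and 7.82, above all activated ones.

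Phf19 on the same scale was at 0.507 to 0.681 in activated WT and 0.577 to 0.692 in knockout libraries. Rbbp7 was at 7.37 to 11.02 and 8.65 to 8.93, and Eed at 2.14 to 3.14 and 2.38 to 2.63. The naive libraries were at 0.496 to 0.663 for Phf19, 39.2 to 46.8 for Rbbp7 and 18.8 to 19.6 for Eed. The Phf19 ranges of the 3 groups overlapped. Rbbp7 and Eed were far lower per unit of the sum in activated cells, as must be any gene that rises less than the sum. This follows from the divisor and holds for Ezh2 too. Between genotypes the values of all 3 overlapped, over an activated WT sum that itself spread from 745 to 1294 FPKM. All 14 division genes rose on activation, with a median log2 fold change of 4.13 beside -0.01 over all tested genes, among them Birc5 (5.62), Top2a (5.21), Cdk1 (5.10) and Mki67 (4.71), which act in mitosis or mark dividing cells. Between genotypes 1 of the 14, Tyms of thymidylate synthesis, was called (0.90, limma adjusted p = 0.0483), with a list median of 0.61 beside 0.06 over all tested genes.

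Activated knockout cells were also compared with naive WT cells, so that both genotype and activation differ and each group is one already used above. Of the 10 genes 9 were called, 6 higher and 3 lower, where 56.9% of all tested genes were called, 31.8% higher and 25.1% lower. The higher genes were Ezh2 (log2 fold change 2.75), Phf19 (2.42), Rbbp7 (0.88), Suz12 (0.64), Rbbp4 (0.49) and Eed (0.26), and the lower ones Kdm6b (-1.68), Kdm6a (-0.41) and Ezh1 (-0.39), with limma adjusted p of at most 0.0253. Jarid2 was not called as reported (-0.23, limma adjusted p = 0.144), and was called in 2 of 18 alternatives. The same 9 genes had groups that did not overlap, against 63.8% of all tested genes. All but Eed of the called genes were called in each of 18 alternatives. Eed was called in 13 (limma adjusted p from 0.00149 to 0.203) and lost without naive library 1 or knockout library 2 or 3, with median-of-ratios scaling (0.22, adjusted p = 0.0642) and with quantile normalization (0.13, adjusted p = 0.203).

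Other genes of PRC2 and of its partner and opposing complexes were counted in lists. Their counts on activation stand beside 26.2% of all tested genes called higher and 25.8% called lower. Of 8 tested accessory and cofactor genes of PRC2, 2 rose and 4 fell on activation (median -0.15). Phf1, which encodes a Polycomb-like protein of the same family as PHF19, fell from 78.6 ± 6.71 to 16.4 ± 2.88 FPKM (SD, n = 3 each; log2 fold change -2.20, limma adjusted p = 1.77e-05), opposite to Phf19. Aebp2, whose product joins JARID2 in the same version of PRC2, rose from 72.1 ± 5.74 to 148 ± 8.15 FPKM (1.03). Zfp518a (-0.89) and Cdyl (-0.47), which encodes a chromodomain protein, fell. Between genotypes 0 of the 8 were called by limma as reported, and at most 1 under the alternatives.

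PRC1, the complex that binds H3K27me3 or adds ubiquitin to histone H2A, had 27 tested genes, of which 4 rose and 15 fell on activation (median -0.38). Kdm2b, which brings PRC1 to unmethylated CpG islands, rose from 9.76 ± 0.653 to 33.8 ± 1.73 FPKM (log2 fold change 1.70, limma adjusted p = 9.25e-06), and Pcgf5 rose by 1.18. Rybp fell by 1.06 and Scml4 by 0.99 on the log2 scale. Between genotypes 0 of 27 were called. Over the alternatives the falling genes numbered 11 to 18.

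**Figure D4:**
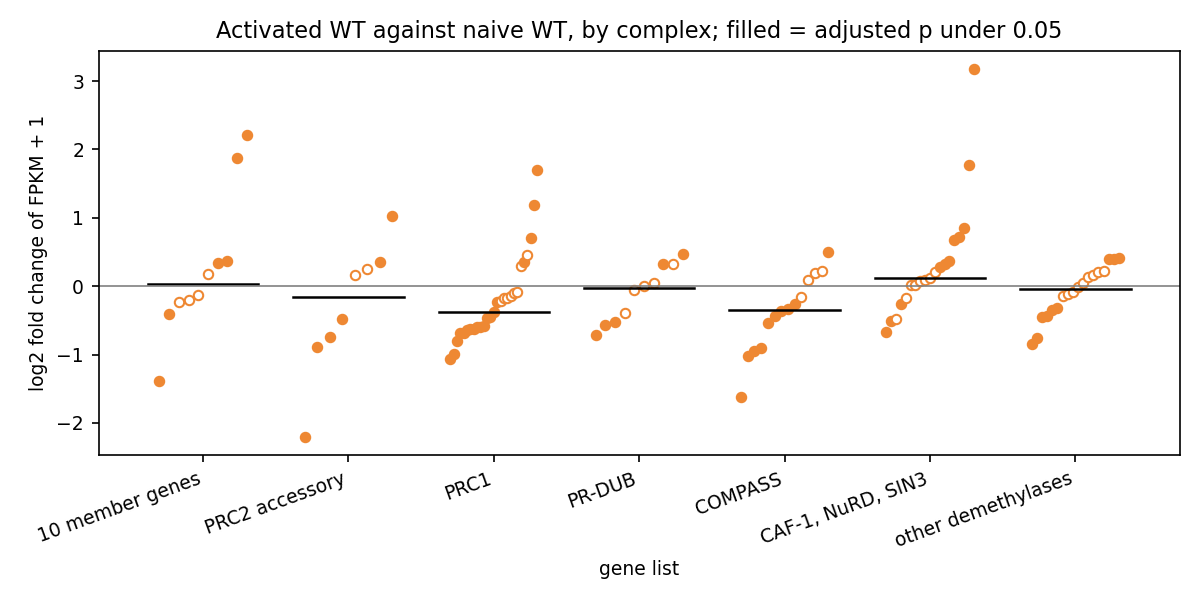
Log2 fold change of FPKM + 1 in activated WT against naive WT cells for each tested gene of the 10 genes and of 6 lists of related complexes, filled where the adjusted p was under 0.05, with lines at the list medians. The PRC1 and COMPASS medians lie below 0, most of their filled points are negative, and Chaf1a at 3.17 is the highest point.

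The plot of fold changes by complex sets these lists side by side. COMPASS complexes place methyl groups on lysine 4 of histone H3 and include versions that carry KDM6A. Of 14 tested COMPASS genes, 1 rose and 9 fell (median -0.35), with the large methyltransferase genes Kmt2d (32.7 ± 8.13 to 9.77 ± 1.25 FPKM, log2 fold change -1.62), Kmt2c (-1.02), Setd1b (-0.95) and Kmt2a (-0.91) the largest named falls. KMT2C and KMT2D are the partners of KDM6A. The genes for PR-DUB, which removes ubiquitin from histone H2A, numbered 10 tested, of which 2 rose, Ogt (0.48) among them, and 3 fell, Kdm1b (-0.72), Foxk1 (-0.56) and Mbd6 (-0.52).

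RBBP4 and RBBP7 also serve chromatin assembly factor 1 (CAF-1), NuRD and SIN3. Of 19 tested genes of these complexes and of the further RBBP4 and RBBP7 partners Hat1 and Rb1, 8 rose and 3 fell (median 0.12). The CAF-1 subunit gene Chaf1a rose from 0.422 ± 0.0718 to 12.0 ± 2.68 FPKM (log2 fold change 3.17), Sap30 by 1.78, Chaf1b by 0.85 and the histone acetyltransferase gene Hat1 by 0.72. Of 18 other histone demethylase genes 3 rose and 6 fell (median -0.05), with Kdm7a (-0.85), Riox1 (-0.76), Kdm4b (-0.45) and Kdm2a (-0.44) the largest named falls. Kdm4b was called in 6 of 18 alternatives (limma adjusted p from 0.00356 to 0.146), and each of the other 3 in all 18.

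Between genotypes these lists held few calls, where 4.14% of all tested genes were called. Paxip1 (0.42) and Wdr5 (0.38) of COMPASS, Chaf1a (0.74) and Mbd3 (0.37) of the RBBP partners and the demethylase gene Phf2 (0.43) were higher in the knockout, and Ogt of PR-DUB lower (-0.57), with limma adjusted p from 0.0386 to 0.0497. Tyms and these genes were each called in 4 to 8 of 18 alternatives. With median-of-ratios scaling none but Ogt was called, and with quantile normalization none was.

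Genes described as held silent through H3K27me3 in T cells were listed too, of which 12 of 18 were tested. On activation 5 rose and 1 fell (median 0.73). Tbx21, the master factor of type 1 helper cells, rose from 0.943 ± 0.368 to 29.2 ± 1.49 FPKM (log2 fold change 3.98, limma adjusted p = 2.83e-06). Runx3 (from 22.9 to 74.2 FPKM, 1.67) and Bcl6 (from 7.43 to 12.4 FPKM, 0.66) also rose, but were not silent in naive cells. Pax5 and Ebf1, not called and named after their values were seen, enter the median and are also B cell markers. Pax5 ranged from 0.0220 to 6.52 FPKM over the naive libraries. The gene that fell was Eomes, named after its values were seen, from 3.20 ± 0.237 to 1.83 ± 0.227 FPKM (-0.57, limma adjusted p = 0.0212). Histone marks were not measured here. Between genotypes 1 of 12 was called, Eomes, with 4.54 ± 1.23 FPKM in knockout cells (0.95 above activated WT, limma adjusted p = 0.0323, called in 10 of 18 alternatives). Knockout and naive WT cells were not called different for Eomes (0.37, limma adjusted p = 0.0918).

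Genes with the most similar profiles were sought among the 8430 tested genes that averaged 5 FPKM or more, by the root mean square (RMS) difference of log2(FPKM + 1) values centred on each gene's mean over the 9 libraries. Nearest to Ezh2 were Brca1 (RMS difference 0.061), a DNA repair gene, E2f1 (0.080), a transcription factor gene of the cell cycle that is also on the cell division list, and Cenpn (0.093), a centromere gene. Nearest to Ezh1 were Srpk2 (0.046), March7 (0.056) and Ets1 (0.061). Nearest to Kdm6a were Rab14 (0.044), Cic (0.044) and Ddx6 (0.045), and to Kdm6b Slc12a7 (0.109), Brwd1 (0.119) and Klf3 (0.135). All 9 libraries fall into naive and activated groups, and the genes share that split and its libraries, so nearness is a description only.

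Some of these values may hold reads of other genes, since neither the strand setting nor the handling of reads with several matches is given. Kdm6bos lies antisense to Kdm6b and shares 286 exonic bases with it (4.11% of its exons), and its mean was at 3.70 FPKM in naive, 1.30 in activated WT and 0.775 in knockout cells. Of the 50-base words in the transcripts of each gene, 17.2% of those of Rbbp4, 11.2% of Rbbp7 and 5.82% of Eed also occur in transcripts of other genes, so these values are uncertain. The share was 1.11% for Ezh2, 2.6% for Suz12, 2.19% for Kdm6b, 0.14% for Kdm6a and 0.093% for Ezh1, and 0 for Phf19 and Jarid2.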

How the data were processed

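TopHat2, Cufflinks and Cuffdiff were used on build GRCm38, per the submitters' processing notes. For roles, versions, annotation and strand setting nothing is given in the sources used here. The authors deposited FPKM values, 1 column per library. Low values are fractional, so read depth is unknown, no counting interval was computed, and only the 3 libraries per group set the precision.

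The 15126 genes averaging 0.5 FPKM or more entered limma 3.58.1 (R 4.3.3) as log2(FPKM + 1), all 9 libraries in 1 fit of group means with an intensity trend, two-sided, with Benjamini-Hochberg adjustment, and were called under 0.05. The script was tested on simulated data. The 10 genes and all lists were chosen with earlier results of these data known. Other genes named are, per list and comparison, up to 4 called genes with the largest change and a group mean of at least 5 FPKM, and the 3 nearest profiles. Positions come from GENCODE M21 and promoter windows from RefSeq. Alternatives covered the pseudocount, the filter, scaling, weights, the trend, a replicate block, the libraries fitted, and each library left out.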

Additional observations from a re-analysis of the deposited data

How the results depend on the processing

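The number of the 10 genes called for activated against naive WT (6) stayed between 4 and 7 over 18 alternatives, and for activated knockout against naive WT (9) between 8 and 10. All genes called numbered 6702 to 10105 (7863 as reported) and 7415 to 10404 (8603 as reported) in these comparisons. Ezh2, Phf19, Kdm6a and Kdm6b were called on activation in each alternative. For knockout against activated WT (2) the number was 1 without a filter on low values, 0 with median-of-ratios scaling, 0 with quantile normalization, 7 with array quality weights, 1 without an intensity trend, 0 with only the libraries compared, and 0 to 3 with 1 library left out: 0 without naive library 1, activated WT library 2 or 3, or knockout library 2 or 3. The causes were not tested. All genes called in that comparison numbered 626, against 306, 324, 3851 and 92 with median-of-ratios, quantile, weights and only the libraries compared, 416 without a filter, and 64 to 1037 with 1 library left out. Of its calls 56.5% were higher with quantile normalization (79.7% as deposited), and of those of knockout against naive WT 43.9% (55.9%).

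With the replicate number as a block the 10 genes gave 4, 0 and 9 calls in the 3 comparisons, and all genes 7447, 58 and 8235. The middle value of each is for knockout against activated WT. Same-numbered libraries correlated at 0.003 to 0.054 in their deviations from group means, and differently numbered ones at -0.068 to 0.038. A library correlated best with its own number in 12 of 18 checks, each with 3 candidates. No label says that the numbers pair libraries, and they were not taken to, but a pairing is not settled.

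The near-zero differences between genotypes changed sign for Jarid2 with array quality weights (0.002) and without activated WT library 1 or 2 or knockout library 2 (-0.068 to 0.052 over all single libraries left out), and for Kdm6a without activated WT library 2 or 3 or knockout library 2 (-0.045 to 0.027). Without counts, differences in low genes such as Phf19 in naive cells have no known counting error.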
